A study of Mus musculus with 49 samples.

Results

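Diploid mouse embryonic stem (ES) cells grown with serum were examined in the stretch of the cell cycle between mid S phase and the approach to mitosis, which the authors named late-S/G2. The 322 cells were those of the serum table that passed the authors' quality control and carried this phase label, out of 859 passing serum cells and 4098 passing cells in the series. The authors' phases and their order of cells, here taken as given, were defined from contact measures of the same cells. Levels, phase differences and courses along the order are therefore given as descriptions without a test, and tests were made only between conditions and between media. The line was an F1 hybrid between 129/SV-Jae and castaneus mice, kept on feeders in medium with fetal bovine serum. Feeders were removed with beads, and nuclei were fixed with formaldehyde, sorted for the pluripotency factor Oct-3/4 and processed by single-cell Hi-C. The table splits the serum cells into the conditions 1CDS1 and 1CDS2, whose meaning is not given in the sources used here. A second table holds cells of the same hybrid line grown in 2i, a medium with inhibitors of differentiation, without feeders. The tables hold no values per gene, so the label could not be checked against marker genes, and the measures at hand had helped to set it.

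Hi-C joins DNA ends that lie near each other in the nucleus, so each contact reports one pair of neighbouring chromosome segments. Interphase chromosomes fold into domains whose borders hold back contacts, which an insulation score measures, and into active and inactive compartments whose segments prefer their own kind. During S phase early-replicating segments are copied before late ones, so their copy number rises first and the excess is lost again once the late segments are copied. A replication score that follows this excess is low in G1, high in mid S phase and low again in G2, and it does not by itself tell G1 from G2. Approaching mitosis, chromosomes condense and contacts move into a band of middle distances, called the mitotic band here.

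The late-S/G2 cells came from 8 sequencing libraries. With at least 10 such cells, 1CDS1 was represented by library 2_14 (10 cells), 3 (24), 4 (32) and 5_10 (15), and 1CDS2 by library 5_10 (33), 7 (45), 8 (68) and 9 (90). Library 1_6 held 1 cell of 1CDS1 and 4 of 1CDS2 and entered pooled counts only. Library 5_10 was the only one of these 7 with both conditions. The label covered 82 of 428 passing 1CDS1 cells (19.2%, exact Clopper-Pearson 95% interval 15.5 to 23.2%) and 240 of 431 1CDS2 cells (55.7%, 50.9 to 60.4%), intervals that cover counting error only. A cell had between 20198 and 688876 contacts, with a median of 267667, 88398801 in all. The index pair of 263 of the 322 cells also occurs in another library, and 0 cells had values identical to another's. Nothing in the labels states that each library was a culture of its own, so p-values below measure only the spread between these libraries.

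The group was set beside its neighbours in the cycle, where the direction of the contact-distance shares is fixed by the way the phases were defined and does not check the label. Beside early-S cells of the same library and condition, the share of short-range contacts was higher in 8 of 8 pairs, 81.3% against 71.8% on average. The mitotic-band share was lower in 8 of 8, 8.70% against 11.8%, and the share of contacts between chromosomes was lower in 8 of 8, 6.19% against 7.62%. Insulation was lower in 8 of 8, 2.15 against 2.35. The border to early-S was gradual. The last 10 early-S cells in the order had a short-range share of 74.7 to 79.1% and a median replication score of 1.37, and the first 10 late-S/G2 cells 76.6 to 78.1% and 1.32. The border to pre-M, the 17 cells before mitosis, was sharper. The last 10 late-S/G2 cells had a mitotic-band share of 6.09 to 8.15%, and the first 10 pre-M cells 10.2 to 19.3%. Their median insulation was 2.11 and 2.01, and their median replication score 1.03 in both.

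Contact distances were narrowly set in these cells. The short-range share was 81.3% ± 0.992 (SD over 7 library means), with single cells between 76.0% and 87.7%. Within a library the pooled SD over cells was 2.21 percentage points, against 0.0738 points from counting alone for a cell of median depth. The SD over cells was smaller than among early-S cells in 8 of 8 pairs, 2.09 against 4.26 points, and smaller than among G1 cells in 7 of 7, where it averaged 7.42 points. The mitotic-band share was 8.69% ± 0.220, with an SD over cells of 1.06 points, and was likewise less spread than in early-S in 8 of 8 and than in G1 in 7 of 7. Since the phases were cut on such measures, a narrow range in them is part of how the group was made. The far distance, the mean length of the longest-ranged contacts within chromosomes, was 23.8 ± 0.661 Mb, from 17.3 to 36.8 Mb in single cells. Contacts between chromosomes made up 6.16% ± 0.362, from 3.26% to 13.1% in single cells.

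Compartment and insulation scores differed in how their SD over cells compared with other phases. The compartment score within chromosomes was 0.145 ± 0.00339 over libraries, but single cells ran from 0.0192 to 0.264. Its SD over cells was larger than in G1 in 7 of 7 pairs, 0.0390 against 0.0225, and larger than in early-S in 7 of 8. The score itself was also higher, 0.145 against 0.0954 in G1 in 7 of 7 pairs. Beside early-S it was 0.144 against 0.125, higher in 8 of 8. The SDs were not scaled to these levels, and counting error was not estimated for the scores. The short-range share was 81.4% against 53.5% in G1, and the part of the number of longer-ranged contacts in these SDs was not tested. The compartment score between chromosomes was 0.0390 ± 0.00658, and its SD over cells was larger than in early-S in 8 of 8 and than in G1 in 5 of 7. Insulation went the other way. It was 2.15 ± 0.0352 over libraries and 1.90 to 2.39 in single cells, and its SD over cells was smaller than in early-S in 8 of 8 pairs, 0.0906 against 0.143. Over pooled early-S cells, insulation went from 2.44 in the first of 8 bins of the order to 2.22 in the last. The part of this course in the early-S SD was not tested. The alignment score, which the authors computed between chromosomes, was 0.316 ± 0.0191.

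The replication score stood out by how much of its spread lay between libraries. It was 1.21 ± 0.0761 over libraries, and 29.7% of the variance over cells lay between libraries. The next highest share was 11.9% for the short-range share, and insulation had 7.33%. The compartment score within chromosomes had 0.734%, so nearly all of its spread was between cells of a library. Most libraries held a single condition, so shares between libraries also hold differences between conditions. Taken by condition, library means of the replication score were 1.30 ± 0.0268 in 1CDS1, from 1.26 to 1.32. In 1CDS2 they were 1.14 ± 0.0108, from 1.13 to 1.15. The mean of 1.21 over libraries lies between these ranges. Among the quality columns, the share without digestion was 32.2% ± 1.23, the duplicated share 2.97% ± 0.351, and the coverage deviation, the largest departure of a chromosome's coverage, 0.279 ± 0.0419. It was 0.4 or more in 102 of the 322 cells, 16 of 82 in 1CDS1 and 86 of 240 in 1CDS2. Such cells were not counted in other phases. The mean coverage deviation was lower than in G1 in 7 of 7 pairs, 0.279 against 0.353, and than in early-S in 7 of 8. It was also higher in 1CDS2 than in 1CDS1 in G1, 0.385 against 0.309, and in early-S, 0.382 against 0.276.

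Within the group, the authors' order was almost a sum of a pair of columns. A straight-line fit of the order on the short-range share and the replication score took up 98.7% of its variance, with a positive slope for the first and a negative slope for the second. In early-S the same fit took up 98.6% with both slopes positive. The rise of the short-range share and the fall of the replication score along the order are thus built into it. In 8 bins of 40 or 41 cells the short-range share went from 78.2% to 85.5%. The mitotic-band share went from 9.57% to 7.32%, and the share between chromosomes from 7.14% to 4.91%, stepping down in every bin. The far distance was 25.3 Mb in the first bin and 21.8 Mb in the last.

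**Figure D1:**
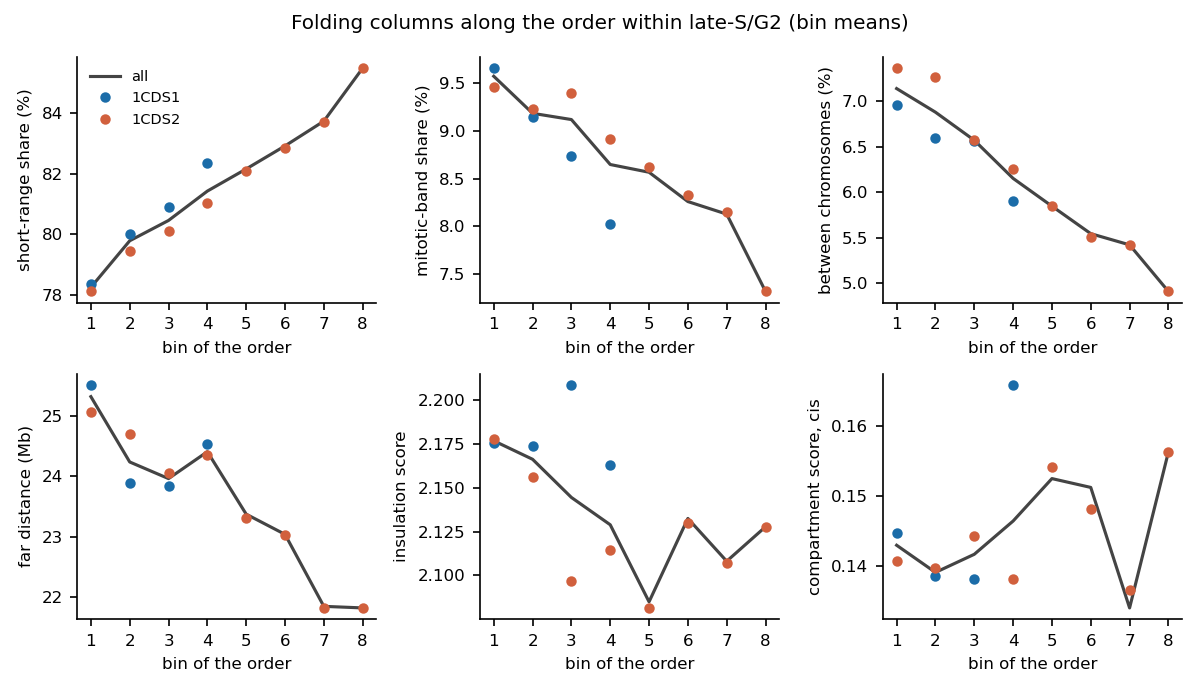
Means of 6 folding columns in 8 bins of the authors' order within late-S/G2; the vertical axes give percent of contacts, Mb or the table's score, the line all cells and the points each condition where a bin holds at least 10 of its cells. Contacts between chromosomes drop from 7.14% to 4.91%, and the compartment score shows no steady course.

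These courses were also seen inside libraries. There too the order followed the short-range share, with Spearman correlations from 0.920 to 0.989. The mitotic-band share and the share between chromosomes are other shares of the same cells' contacts. Their falls are thus not free of the sorting by short-range share, and its part in them was not tested. Each pair of library and condition was divided into 3 equal parts (terciles) along the order. From the first to the last tercile, the share between chromosomes fell in 8 of 8 pairs, by 1.23 points on average, and the mitotic-band share in 8 of 8, by 1.45 points. The far distance fell in 7 of 8, by 1.79 Mb, library 2_14 being the exception with 0.0711 Mb more. The compartment score within chromosomes had no steady course: it was higher in the last tercile in 7 of 8, but by 0.00699 ± 0.0171. Library 2_14, with 10 cells, changed by -0.0309, and without it the mean was 0.0124. With 2 equal parts in place of 3 the mean change was -0.000106. Its Spearman correlation with the order ran from -0.345 to 0.339 over libraries. The pooled insulation score went from 2.18 in the first bin to a low of 2.09 in bin 5 and stood at 2.13 in the last. Inside libraries it moved little. It was lower in the last tercile in 4 of 4 1CDS1 libraries, by 0.0280, and higher in 3 of 4 1CDS2 libraries, by 0.00312 on average. The makeup of the bins moved with the pooled course: 1CDS1 gave 23 of 41 cells in the first bin, 12 of 40 in the fourth and 0 in the last.

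The replication score fell back over the group. Over the early-S and late-S/G2 cells of serum together, its running mean over 31 cells was highest at position 517 of the order, 1.34. The first late-S/G2 cell follows at position 521. Taken by condition the peak lay inside late-S/G2, at position 540 in 1CDS1 (1.32) and at position 530 in 1CDS2 (1.30). Within late-S/G2 the 8 bins averaged 1.30, 1.28, 1.21, 1.20, 1.15, 1.13, 1.10 and 1.09, against 1.04 in G1 cells. The running mean passed halfway from its peak in the group, 1.30, to the G1 mean at position 687, after 51.9% of the group's cells. The last running mean was 1.09. The largest step was from 1.28 in bin 2 to 1.21 in bin 3, and the last pair of bins was nearly level. The mix of conditions changed along these bins, with 1CDS1 giving 12 of 40 cells in bin 4 and 2 of 41 in bin 5. The pooled course and its halfway point therefore also hold the difference between conditions.

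**Figure D2:**
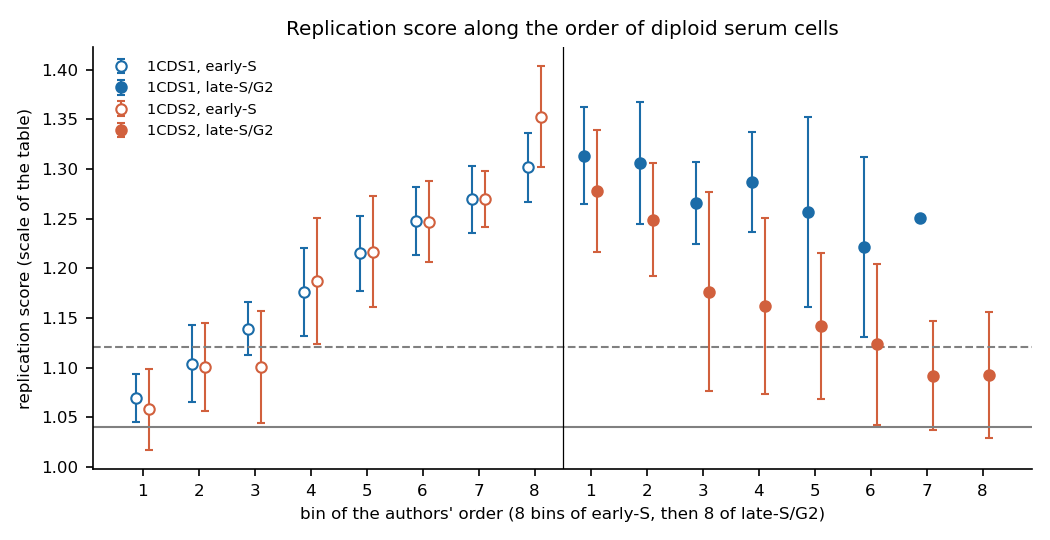
Replication score (scale of the table) in 8 bins of early-S (open points) and 8 bins of late-S/G2 (filled points) by condition, as mean and SD over cells; a point without a bar is 1 cell. The solid grey line is the mean of G1 cells, 1.04, and the dashed line their 95th percentile, 1.12; 1CDS2 bins come down to 1.12 in bin 6, and 1CDS1 bins stay at 1.22 or more.

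The course was also followed in each condition. Among 1CDS1 cells the bins that held at least 10 cells averaged 1.31, 1.31, 1.27 and 1.29, and their running mean ended at 1.27 without passing halfway. Among 1CDS2 cells the 8 bins averaged 1.28, 1.25, 1.18, 1.16, 1.14, 1.12, 1.09 and 1.09, and halfway was passed after 36.3% of their cells. In the 4 1CDS2 libraries taken singly, with a running mean over 11 cells, halfway was passed after 48.8% ± 18.4 (SD, n = 4) of the library's cells. It ran from 27.9% in library 8 to 72.7% in library 5_10. In 5_10 the window took in 11 of 33 cells, and the halfway score, 1.1063, was barely above the last running mean, 1.1055. Its 72.7%, and with it the SD, is thus loosely set. Each library was measured from its own peak, 1.17 in 5_10 and 1.27 in 8, so the halfway scores differed as well, 1.11 and 1.16.

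Because the order contains the score, the cells were also sorted by the short-range share alone, a view added after the data were seen. In quartiles of rising short-range share, 1CDS1 cells averaged 1.30, 1.28, 1.29 and 1.29 (34, 29, 14 and 5 cells). The 1CDS2 cells averaged 1.20, 1.14, 1.14 and 1.12 (47, 51, 67 and 75 cells). The score was thus lower in 1CDS2 in each quartile, was level across quartiles in 1CDS1, and dropped in 1CDS2 mainly between the first quartile and the next. Sorted in this way, the pooled running mean passed halfway after 43.5% of the cells, while the 1CDS1 part of the quartiles shrank from 34 of 81 cells to 5 of 80.

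A score back among G1 values was common in 1CDS2 and rare in 1CDS1. The limit was the 95th percentile of G1 cells, 1.12. At or under it lay 107 of 322 late-S/G2 cells (33.2%, exact 95% interval 28.1 to 38.7%), beside 138 of 146 G1 cells, 96 of 368 early-S cells and 17 of 17 pre-M cells. Intervals and upper limits of these shares cover counting error only, not the spread between libraries or conditions. By bin the share was 2.44%, 0, 15.0%, 25%, 39.0%, 57.5%, 62.5% and 65.0%. The 0 of 40 cells in the second bin allow a share of up to 7.5% as 3 counts of the total, and up to 8.81% by the exact interval. In 1CDS2 it was 106 of 240, and by library 45.5% in 5_10, 53.3% in 7, 51.5% in 8 and 34.4% in 9. In 1CDS1 it was 1 of 82, a cell of library 1_6, and 0 of 81 cells in the other 4 libraries, which allows a share of up to 3.70% as 3 counts of the total. The count depends on the limit, since 37 of the 322 cells lay within 0.02 of it.

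**Figure D3:**
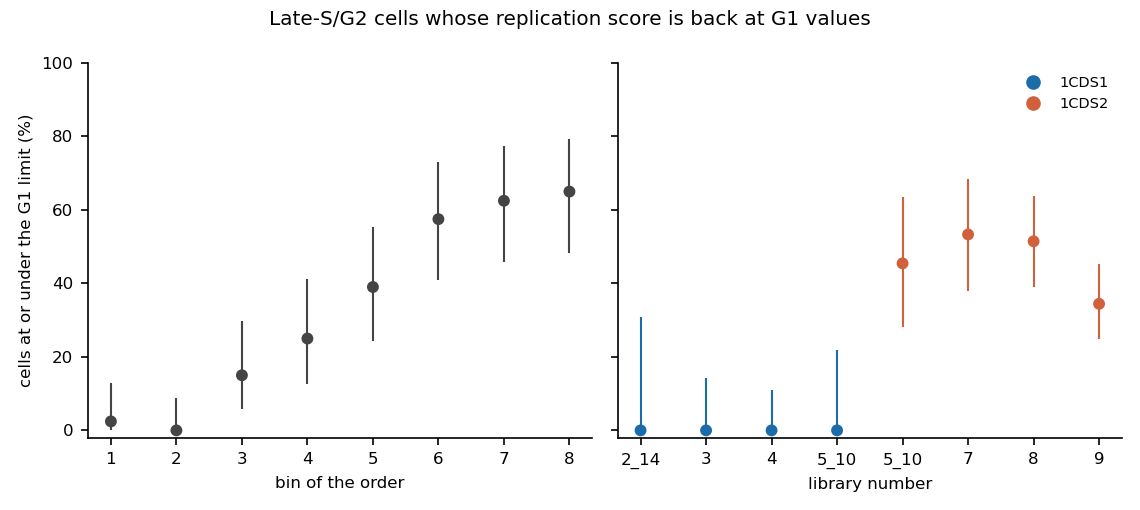
Share of late-S/G2 cells with a replication score at or under the 95th percentile of G1 cells, in percent, by bin of the order (left) and by library and condition (right). Bars are exact 95% intervals, which cover counting error only. The share climbs from 2.44% to 65.0% along the order, and the 4 1CDS1 libraries are at 0.

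The 107 cells with a G1-like score differed from G1 cells in the median of some folding columns and lay near them in another. Their short-range share ran from 76.0% to 87.7% with a median of 82.6%, above the highest G1 cell at 63.9%. Early-S cells under the same limit had a median of 67.8%. Median insulation was 2.11 in the late cells, 2.46 in these early-S cells and 2.36 in G1. Its ranges overlapped, 1.94 to 2.29 in the late cells and 1.95 to 2.61 in G1. The median compartment score within chromosomes was 0.145 in the late cells and 0.0952 in G1. The median share of contacts between chromosomes was 5.45% in the late cells, near the 5.31% of G1, and 7.54% in these early-S cells. The short-range share and the mitotic-band share helped to define the phases, so their separation is part of the grouping. Beside the other late-S/G2 cells of their 1CDS2 library, cells at or under the limit had a shorter far distance in 4 of 4 libraries, 22.3 against 24 Mb. They had fewer contacts between chromosomes in 4 of 4, 5.41% against 6.28%. Insulation was 2.11 against 2.12, lower in 2 of 4. The same cells were also compared after the median position of the order, where 3 libraries held enough of both. The order contains the score and the short-range share, so this cut does not free the comparison from the order. Cells at or under the limit there had a lower short-range share, 83.2% against 84.0%, in 3 of 3 libraries. Over the whole group it was higher in 3 of 4. Their mitotic-band share, 8.45% against 7.67%, and coverage deviation, 0.299 against 0.229, were higher in 3 of 3. The gap in far distance was then -0.741 ± 0.531 Mb and that in contacts between chromosomes -0.326 ± 0.392 points, each lower in 3 of 3, and insulation was higher in 3 of 3, 2.12 against 2.10. Over the whole group they also had more contacts per cell in 4 of 4, 321066 against 275386, and the part of depth in these differences was not tested.

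The conditions were then compared over library means within late-S/G2. The choice of cells did not use the condition, but it did use contact measures of the same cells. The short-range and mitotic-band shares helped to define the phases, and the order contains the replication score. Differences in these columns are therefore differences inside a group cut on such values, which took in 19.2% of 1CDS1 and 55.7% of 1CDS2 cells. Replication scores were 1.31, 1.26, 1.29 and 1.32 in 1CDS1 libraries 2_14, 3, 4 and 5_10, and 1.15, 1.13, 1.14 and 1.15 in 1CDS2 libraries 5_10, 7, 8 and 9. Every 1CDS1 library was above every 1CDS2 library. With 4 against 4 library means the exact permutation test, two-sided, cannot go below p = 0.0286. At that p stood 5 of 13 columns, and 0 of 13 (0%) passed an adjusted p of 0.05 (Benjamini-Hochberg; adjusted p = 0.0743 for each of the 5 in this exact test). With library 5_10 only swapped between the conditions, an exact test added after the data were seen, 0 passed as well, and its smallest possible p is 0.05. The 5 columns were those whose library means did not overlap. The replication score was 1.30 ± 0.0268 against 1.14 ± 0.0108, and insulation 2.18 ± 0.0188 against 2.12 ± 0.0220. The short-range share was 80.4% ± 0.135 against 82.3% ± 0.374, and the mitotic-band share 8.92% ± 0.0780 against 8.48% ± 0.0857. The far distance was 24.5 ± 0.214 Mb against 23.2 ± 0.389 Mb. The share between chromosomes was 6.51% against 5.86% and the coverage deviation 0.255 against 0.302, each with an exact p of 0.0571 (adjusted 0.106). The other 6 columns, the compartment and alignment scores among them, had exact p-values of 0.2 or more.

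**Figure D4:**
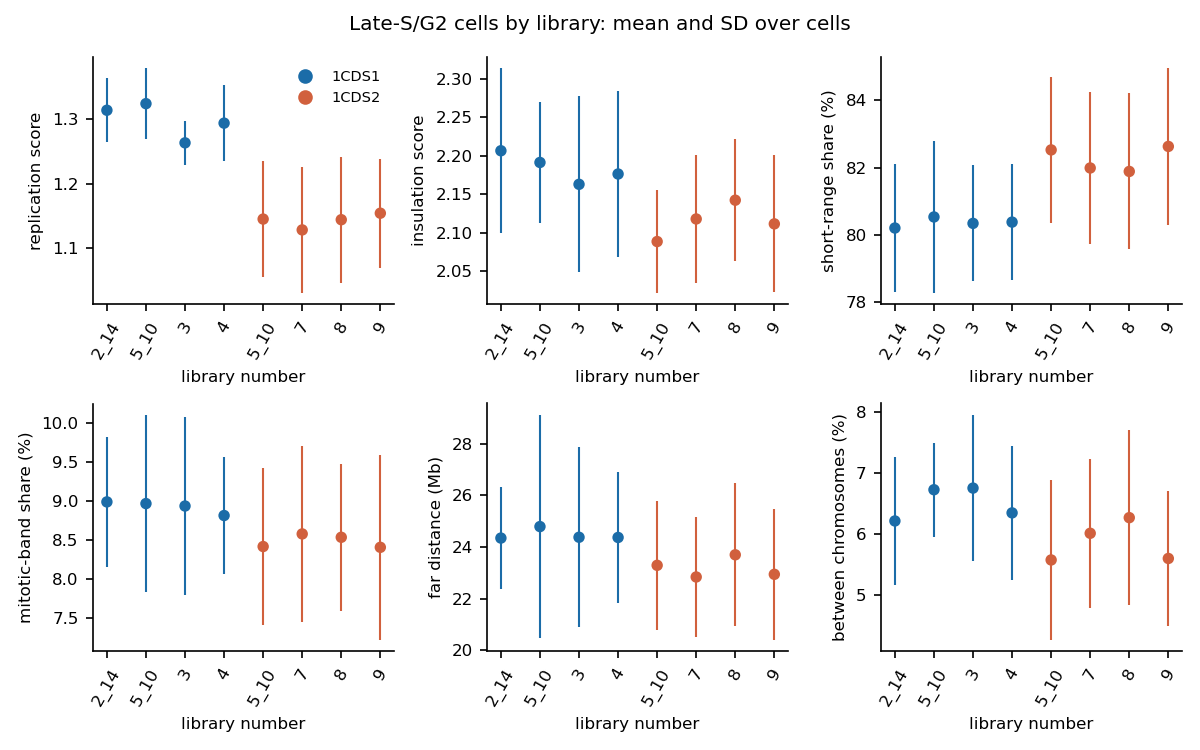
Means of late-S/G2 cells per library in 6 columns, with bars of 1 SD over cells; the horizontal axis gives the library number and the vertical axes the table's score, percent of contacts or Mb. In the replication score the 4 1CDS1 libraries lie between 1.26 and 1.32 and the 4 1CDS2 libraries between 1.13 and 1.15; in contacts between chromosomes the conditions overlap.

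Within library 5_10, to which the deposited cell list gives 1 lane for both conditions, the replication score was 1.32 in 15 1CDS1 cells and 1.15 in 33 1CDS2 cells, and insulation 2.19 and 2.09. The same cells differed in depth, with 156821 contacts against 293531. Late-S/G2 cells of 1CDS2 also lay later in the order, so both conditions were set side by side in narrower windows chosen after the data were seen. Among cells whose short-range share lay between 79.0% and 81.5% (40 of 1CDS1 and 63 of 1CDS2), the replication score was 1.29 against 1.15, again with no overlap between libraries (exact p = 0.0286, adjusted 0.186). The coverage deviation, a quality column, also separated there without overlap, 0.218 against 0.364 (exact p = 0.0286, adjusted 0.186), and its part in the other differences was not tested. Insulation overlapped in that window, 2.18 against 2.11 (exact p = 0.0857, adjusted 0.279). In that window the short-range share differed by 0.150 points and the far distance by -0.130 Mb, and the mitotic-band share was 0.160 points higher in 1CDS2, the opposite sign. Among the 75 1CDS1 and 86 1CDS2 cells before the median position of the order, insulation differed by -0.0660 (1CDS2 minus 1CDS1) and the replication score by -0.0985, both with no overlap between libraries (exact p = 0.0286 each, adjusted 0.124). The coverage deviation was again apart, 0.253 against 0.365, with the same exact p-values. Its mean was higher in 1CDS2 in G1 and early-S cells as well, so this difference is not particular to late-S/G2. Over all alternatives the adjusted p ran from 0.0619 to 0.52 for the replication score and for insulation.

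Cell-to-cell spread was also set side by side. The SD of the replication score over cells was 0.0341 to 0.0585 in 1CDS1 libraries and 0.0842 to 0.0982 in 1CDS2 libraries. For insulation the ranges overlapped, 0.0783 to 0.114 against 0.0670 to 0.0888. From the first to the last tercile of a library's cells the replication score changed by -0.0348 ± 0.0130 in 1CDS1 and by -0.116 ± 0.0384 in 1CDS2. Single libraries changed by -0.0187 to -0.0488 in 1CDS1 and by -0.0661 to -0.155 in 1CDS2. The order contains the score, so a wider spread of it gives a larger change, and nothing is read from this difference beyond the SDs. Over the 13 columns, 0 changes (0%) differed between conditions at the adjusted threshold of the exact permutation test, and 1, that of the replication score, had an unadjusted p under 0.05.

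Serum late-S/G2 cells were compared with the 649 late-S/G2 cells of the 2i table, over 7 serum and 10 2i libraries and the 7 columns with one unit in both tables. An exact two-sided permutation over 19448 relabelings called 2 of 7 columns (28.6%). The mitotic-band share was higher in serum, 8.69% ± 0.220 against 8.33% ± 0.217 (exact permutation, adjusted p = 0.0185). The far distance was shorter in serum, 23.8 ± 0.661 Mb against 25.2 ± 0.957 Mb (adjusted p = 0.0185 in the same exact test). Library means overlapped in both. The mitotic-band and short-range shares helped to define the phases, so differences in them between media lie inside groups cut on such values. The call for the mitotic-band share is therefore not free of the grouping. The mitotic-band difference did not hold for 1CDS2 cells alone, at 0.152 points (exact, adjusted p = 0.365), while the far distance was then 2.01 Mb shorter (adjusted p = 0.0210); over all alternatives the adjusted p ran from 0.000612 to 0.365 and from 0.00551 to 0.0485.

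The 2i libraries were a mixture, since some were sorted and the table names other conditions for them. Contacts between chromosomes were 6.16% ± 0.362 in serum and 5.31% ± 1.37 in 2i, which did not pass (exact, adjusted p = 0.146). Library 11 of 2i, the only one of the condition 1CDU with 10 cells, had 8.74%, and without it the calls went from 2 to 4, this share among them (exact, adjusted p = 0.00459). Against the 4 2i libraries of the condition NoSort, added after the data were seen, the share was 6.16% against 4.32% with no overlap (exact, adjusted p = 0.00707), and all 7 columns passed. The share without digestion, a quality column, was then 32.2% against 48.8%, the duplicated share 2.97% against 5.92%, and contacts per cell 273857 against 159363. Medium, feeders, the Oct-3/4 sort and these library differences cannot be told apart. Library 2_14, which holds cells of both media, had late-S/G2 cells enough for a mean in serum only.

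**Figure D5:**
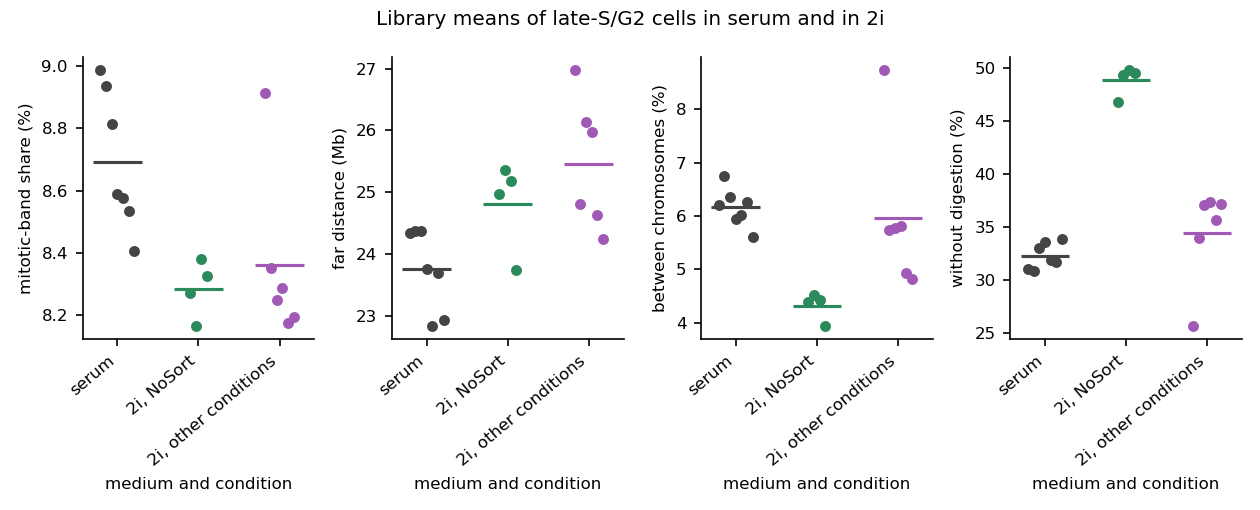
Library means of late-S/G2 cells in serum (7 libraries), in 2i libraries of the condition NoSort (4) and in the other 2i libraries (6); vertical axes give percent or Mb, and bars mark the mean of each set. Serum far distances centre on 23.8 Mb and 2i NoSort ones on 24.8 Mb, and the shares without digestion of serum and NoSort libraries, 32.2% and 48.8%, lie far apart.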

How the data were processed

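Tables of cells by features for the diploid serum and diploid 2i cells, and a list pairing each cell with its library, were used as deposited; the haploid table gave a cell total only, and nuclear RNA was not analysed here. Reads were aligned with Bowtie2 to mm9, per the submitters' processing notes. Per the file headers, contacts of a cell are a count. The authors' shares of contacts are deposited as a fraction (percent here), and band limits and denominators are not given in the sources used here. The deposited score columns (compartments, insulation, replication, alignment, coverage deviation) have no stated scale, and the lowest passing serum cell has a replication score of 1. Far distance is in bp, shown in Mb.

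The cells and columns were chosen with earlier results of these data known. GEO samples served as libraries, joined through the cell list by cell name in serum and by batch number in 2i. Values are means over cells in libraries with at least 10 late-S/G2 cells, then mean and SD over libraries. A pair is a library within 1 condition. Bins hold equal numbers of cells along the authors' order, and terciles were taken within a pair. The exact permutation of library means, two-sided, with Benjamini-Hochberg adjustment over 13 or 7 columns, was tested on simulated data. The free permutation was settled on after library means had been seen, and counts library 5_10 on both sides as separate means. No gene could be named, and the rule was to describe every folding column and give cells by library; cell type markers did not apply. Alternatives were minimums of 5 and 20 cells, medians, cells of middle depth, other bins, windows and G1 limits, and each library left out. Computation used matplotlib 3.10.9, scipy 1.17.1, pandas 2.3.3 and numpy 2.4.6 under Python 3.11.15. The number of libraries and, for single cells, 20198 to 688876 contacts limit the precision.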

Additional observations from a re-analysis of the deposited data

Results flagged for a closer look

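The far distance of 1CDS1 cells in library 5_10 was 24.8 Mb, while the other 3 1CDS1 libraries lay at 24.3, 24.4 and 24.4 Mb. The gap to the nearest was 0.929 of the whole range of the 4 libraries. The whole range is small beside the SD over cells in library 5_10, 4.33 Mb over 15 cells. Of 39 such sets of library means tested, this 1 stood apart by Dixon's criterion, which chance meets in about 1 of 20 sets.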

How the results depend on the processing

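For the conditions, 0 of 13 columns passed in library means and in courses under each alternative run, the replicates left out in turn included; with so few libraries an adjusted p can pass only when most columns reach the smallest p, so this says nothing about stability. Among cells before the median position of the order, 3 differences changed sign: short-range share -0.146 points, mitotic-band share 0.155 points and contacts between chromosomes 0.128 points. In the window of matched short-range share the mitotic-band difference was 0.160 points, also of the opposite sign. Of the 6 columns with an unadjusted p of 0.1 or more, 3 changed sign in some alternative, as did 4 of 10 such courses; the cause was not tested. In serum against 2i the calls went from 2 to 4 with at least 20 cells per library and with cells of middle depth, to 7 with NoSort libraries, to 1 with 1CDS2 cells, where the short-range difference turned to 0.212 points, and to 6 with both restrictions. With 1 library left out they ranged from 2 to 4, 4 without 2i library 11. The share of cells at or under the G1 limit, averaged over libraries, was 46.2% in 1CDS2 and 36.7% with the 90th percentile of G1 cells, and in 1CDS1 0 and 0.781% with G1 cells of the same library. With 1 library left out it was 43.8 to 50.1% and 0. The halfway point, 51.9%, lay between 43.5% and 57.5%. No paired analysis was possible because with at least 10 cells on each side the conditions share only library 5_10 (1_6 held 1 and 4 cells) and the media share none, so the planned replicate block could not be fitted.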
